A study of Mus musculus with 4 samples.

Results

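The Schlafen genes Slfn1, Slfn2, Slfn4, Slfn5, Slfn8 and Slfn9 were followed in the macrophage-like mouse line RAW264.7 after an siRNA pool against Ruvbl2 and after lipopolysaccharide (LPS). Members were chosen by name, as the probes whose transcript accession or platform annotation maps to one of these 6 symbols. All 6 had a probe, 10 probes in all, among 22911 named genes on the array. Of the 6, 5 were called well above background by the scanner software on each of the 4 arrays, and Slfn1 on none.

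Schlafen proteins share an amino-terminal domain that binds RNA and in several members cuts transfer RNA, and many Schlafen genes are induced by type I interferon. Slfn1 and Slfn2 are short forms, Slfn4 is of intermediate length, and Slfn5, Slfn8 and Slfn9 are long forms that carry a helicase-like part. In macrophages, LPS acts through Toll-like receptor 4, which drives NF-κB and AP-1 and also the making of interferon-β. Secreted interferon then acts on its receptor, and the transcription factors it activates bind the interferon-stimulated response element (ISRE) of target genes.

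The series measured messenger RNA on 1-colour Agilent mouse arrays. The 4 groups were RAW264.7 cells with non-targeting control siRNA and DMSO, control siRNA and LPS, an siRNA pool against Ruvbl2 and DMSO, and the Ruvbl2 pool and LPS, with 1 array in each group. RUVBL2 is an ATPase of chromatin remodelling and chaperone complexes, and the series concerns its place in the inflammatory response of macrophages. The titles of the Ruvbl2 siRNA samples leave out a letter of the target's name, the transfection was by electroporation or a lipid reagent without a statement of which, and the sources used here state no dose or time for LPS. All groups are of a single cell line that underwent transfection, and no untransfected cells were analysed here. With 1 array in each group there is no replicate error and no p-value, so the differences given compare these arrays.

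A level here is the log2 processed signal of a probe minus the 75th percentile of its array, so that 0 is that percentile. A difference was called where it reached 1 on the log2 scale, which is 2-fold, between arrays on which the probe was well above background. Levels of different probes are not on a common scale and are not set against each other. The technical SD of a difference, from probes printed 10 times, was 0.04 at levels above 3, 0.05 between 0 and 3, 0.21 between -4 and 0, and 0.48 lower down. It covers the spots of an array and not the spread between cultures. The SD between -4 and 0 rests on 6 probes and that between 0 and 3 on 4.

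Across the arrays, 54.1% to 55.0% of RNA spots were well above background, the 75th percentile of signal was between 331 and 456, and no spot was saturated. The Ruvbl2 message stood at 79.2% of control in DMSO and at 75.7% in LPS by its brighter probe, and at 68.5% and 92.2% by its dimmer one, so none of these values reached the size rule. The brighter probe's spot on the control siRNA DMSO array carried an outlier mark of the scanner software. The slide held the control siRNA arrays in its row 1 and the Ruvbl2 siRNA arrays in its row 2, which means that row and siRNA cannot be told apart. The E1A spike-ins, RNA added before labelling, had a median level of 3.95 on the Ruvbl2 siRNA DMSO array and of 3.57 to 3.64 on the others. Scaling on them moved the median of all genes by -0.30, from 0.04 to -0.26, for the siRNA difference in DMSO. It moved that of LPS with Ruvbl2 siRNA by 0.37, from -0.03 to 0.33, and that of the difference of LPS effects by 0.30, from -0.03 to 0.26. Member directions that this turns are given beside the values. All 8 macrophage markers were well above background on all 4 arrays, while none of 4 B cell markers and 1 of 4 fibroblast markers, Col1a2, was. Among T cell markers, 4 of 6 were, namely Cd3e, Cd3d, Cd4 and Lck. With LPS under control siRNA Lck was 2.50-fold higher, while Cd4 had a value of -0.20, Cd3d of -0.15 and Cd3e of -0.05, which spike-in scaling turned to 0.02. The summed linear level of the T cell markers, relative to the 75th percentile, was 5.27 and 5.09 on the DMSO arrays and 7.25 and 5.92 on the LPS arrays of control and Ruvbl2 siRNA, and its part in the Schlafen values was not tested. In RNA from whole cultures, fewer cells that express a gene and less of its RNA per cell cannot be told apart.

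LPS against DMSO asks how far each Schlafen gene takes part in the LPS response. With control siRNA, 3 of the 5 detected members were called higher with LPS, namely Slfn4, Slfn5 and Slfn2, and none was called lower. The background was 7.93% of 13550 genes called, 5.73% higher and 2.2% lower. The members' median difference was 1.09, with a range from 0.04 to 2.06, against a median over all genes of about 0 and a central 95% of -0.92 to 1.43. With Ruvbl2 siRNA, Slfn4 and Slfn5 were called higher, and none was called lower, against a background of 6.21% of 13517 genes called, 4.14% higher and 2.07% lower. All 5 members were above 0 there, with a median of 0.96 and a range from 0.86 to 2.04, beside -0.03 over all genes. With spike-in scaling all 5 were called in the Ruvbl2 siRNA pair. That scaling moves every gene of the pair up by 0.37, and the share of all genes called under it is not reported here.

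**Figure D1:**
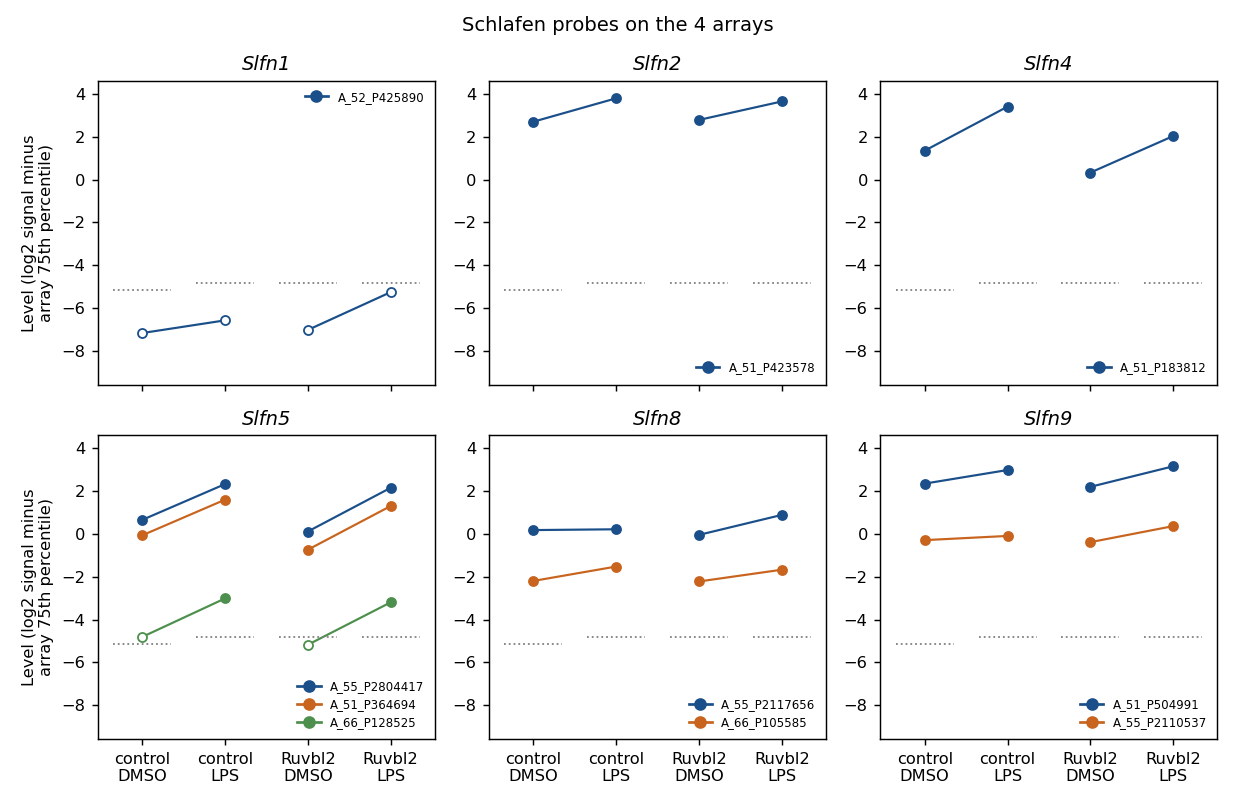
Level of each Schlafen probe (vertical axis, log2 relative to the array's 75th percentile) on the 4 arrays (horizontal axis), with open symbols where the probe was not well above background, dotted marks for the lowest detected level of the array, and lines joining DMSO to LPS. The probes of Slfn2, Slfn4 and Slfn5 stand higher on both LPS arrays than on both DMSO arrays, and Slfn4 is lower on each Ruvbl2 siRNA array than on the control array of the same treatment.

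Slfn4, known to be induced in myeloid cells by Toll-like receptor ligands and by interferon, had the largest LPS difference of the members with control siRNA. Its level was 1.35 with control siRNA and DMSO, 3.40 with control siRNA and LPS, 0.32 with Ruvbl2 siRNA and DMSO, and 2.03 with Ruvbl2 siRNA and LPS. Both LPS values lay above both DMSO values. Within each treatment the Ruvbl2 siRNA value was the lower of the pair. The LPS difference was 2.06, or 4.16-fold, with control siRNA and 1.71, or 3.26-fold, with Ruvbl2 siRNA, against a technical SD of 0.05 or less. Of the other genes compared, 217 of 13549 had as high a difference with control siRNA and 220 of 13516 with Ruvbl2 siRNA.

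Slfn5, a long form known as an interferon-induced gene that acts in the nucleus, had the largest LPS difference of the members with Ruvbl2 siRNA. By its brightest probe the level was 0.65 with control siRNA and DMSO, 2.32 with control siRNA and LPS, 0.11 with Ruvbl2 siRNA and DMSO, and 2.15 with Ruvbl2 siRNA and LPS. The LPS arrays were again the higher ones, and the Ruvbl2 siRNA DMSO array was the lowest. LPS gave 1.67, or 3.19-fold, with control siRNA and 2.04, or 4.12-fold, with Ruvbl2 siRNA. A second probe gave nearly the same differences, 1.66 and 2.04, from levels of -0.07, 1.60, -0.74 and 1.30 in the same order of groups. The third and dimmest probe was well above background on the LPS arrays only. It was at least 3.10-fold higher with LPS under Ruvbl2 siRNA. Under control siRNA it was 3.48-fold higher against an undetected DMSO value that lay above the array's floor, so this fold is no lower bound. All 3 probes of Slfn5 thus read higher with LPS under each siRNA.

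Slfn2, a short form needed for the quiescence of T cells and monocytes, which shields transfer RNA from the ribonuclease angiogenin, was measured by 1 probe. Its level was 2.70 with control siRNA and DMSO, 3.80 with control siRNA and LPS, 2.78 with Ruvbl2 siRNA and DMSO, and 3.65 with Ruvbl2 siRNA and LPS. The values fell into a pair of DMSO arrays and a higher pair of LPS arrays, in each of which the siRNAs lay close together. LPS gave 1.09, or 2.13-fold, with control siRNA, which was called. With Ruvbl2 siRNA it gave 0.86, or 1.82-fold, which was not called, although spike-in scaling raised it to 1.23.

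Slfn9, a long form, was higher with LPS under both siRNAs without reaching the size rule. Its brighter probe stood at 2.35 with control siRNA and DMSO, 2.98 with control siRNA and LPS, 2.20 with Ruvbl2 siRNA and DMSO, and 3.16 with Ruvbl2 siRNA and LPS. Both LPS arrays were above both DMSO arrays, by 0.63 with control siRNA and by 0.96, or 1.94-fold, with Ruvbl2 siRNA. The dimmer probe gave smaller differences, 0.20 and 0.75, from levels of -0.29, -0.10, -0.39 and 0.36 in the same order of groups. Its difference of 0.20 with control siRNA lay within the technical SD of 0.21.

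Slfn8, the long form beside Slfn9, was the member whose 2 probes disagreed. The probes are annotated to different transcripts of the gene, and whether those transcripts differ between the groups was not tested. The brighter probe stood at 0.18 with control siRNA and DMSO, 0.21 with control siRNA and LPS, -0.05 with Ruvbl2 siRNA and DMSO, and 0.89 with Ruvbl2 siRNA and LPS. The Ruvbl2 siRNA LPS array alone stood apart. LPS gave 0.04 with control siRNA and 0.93, or 1.91-fold, with Ruvbl2 siRNA. The dimmer probe stood at -2.20, -1.53, -2.22 and -1.67 in the same order of groups. By that probe both LPS arrays were the higher ones, by 0.67 and 0.55, with a technical SD of 0.21. Slfn8, Slfn9 and the pseudogene Slfn10-ps are closely related in sequence, and whether these probes bind each other's transcripts was not tested.

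Slfn1, a short form known for slowing the growth of thymocytes when overexpressed, was not well above background on any array. Its processed signal was 3.17 with control siRNA and DMSO, 4.14 with control siRNA and LPS, 2.54 with Ruvbl2 siRNA and DMSO, and 10.6 with Ruvbl2 siRNA and LPS. The scanner's own error was 100% of the signal on both DMSO arrays, 74.2% with control siRNA and LPS, and 31.7% with Ruvbl2 siRNA and LPS, so no difference is given for it.

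The Schlafen genes of chromosome 11 lie side by side, and neighbours did not share a single LPS value. The mouse gene table of RefSeq orders them as Slfn5, Slfn9, Slfn8, Slfn10-ps, Slfn2, Slfn1, Slfn4, Slfn3 and Slfn14, with no protein-coding gene of another family between them. With control siRNA, the differences along that order were 1.67 at Slfn5, 0.63 at Slfn9, 0.04 at Slfn8, 0.78 at Slfn10-ps, 1.09 at Slfn2, 2.06 at Slfn4 and 0.75 at Slfn3. With Ruvbl2 siRNA they were 2.04, 0.96, 0.93, 1.04, 0.86, 1.71 and 0.69 in that order. Each gene is given by its brightest probe. The low Slfn8 value with control siRNA rests on 1 of 2 probes, as the dimmer one gave 0.67 there and 0.55 with Ruvbl2 siRNA. All 7 detected genes were above 0 in both pairs, and Slfn5 and Slfn4, which are not neighbours, carried the largest values. Slfn14 was not well above background on any array, and neither was the Schlafen-like gene Slfnl1, which lies on chromosome 4.

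**Figure D2:**
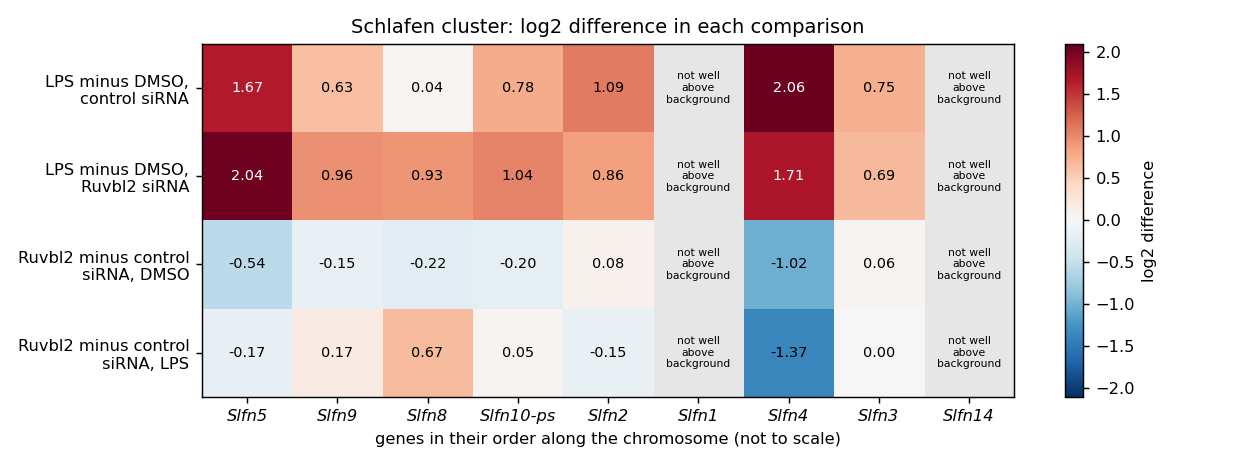
Heat map of log2 differences (colour scale) for the Schlafen genes in their order along chromosome 11 (horizontal axis, not to scale) in the 2 LPS and the 2 siRNA comparisons (vertical axis), with genes not well above background written as such. Each gene is shown by its brightest probe, and the dimmer Slfn8 probe, not shown, gave 0.67 with LPS under control siRNA. Slfn5 and Slfn4 have the strongest LPS values, 1.67 and 2.06 with control siRNA, and Slfn4 alone has siRNA values past -1; with spike-in scaling the DMSO siRNA values of Slfn2 and Slfn3 turn below 0.

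Promoters are shown because the members that were higher with LPS are known interferon or Toll-like receptor targets. All 6 members matched the RefSeq promoter table (build GRCm38.p6), which holds 250 bases before and 50 after each gene's start, and Slfn8 has an entry for each of 2 starts. The ISRE was searched on both strands as GAAA, any 2 bases and GAAA again, and 3.44% of the 32851 promoters in the table hold it. Slfn5, Slfn8 and Slfn9 did, 3 of the 6 members. In the windows that follow, each 60 bases long and 5′ to 3′ on the strand of its gene, capitals mark the match.
Slfn5, chr11:82951922-82951981, plus strand: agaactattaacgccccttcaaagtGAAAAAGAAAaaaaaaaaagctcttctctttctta
Slfn9, chr11:82991841-82991900, minus strand: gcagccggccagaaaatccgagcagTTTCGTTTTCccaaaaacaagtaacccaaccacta
Slfn8, chr11:83020824-83020883, minus strand: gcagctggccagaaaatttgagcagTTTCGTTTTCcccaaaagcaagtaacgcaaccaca
The Slfn9 and Slfn8 windows carry the same 10 letters, with 35 bases between the match and the start in Slfn9. In Slfn8 there are 38 bases to its first listed start and 126 to its second. The promoters of this pair were 80.8% identical, against 46.5% to 53.0% for all other pairs of members, with the first listed promoter of Slfn8 used. The Slfn5 match lies 145 bases before the start and runs into a stretch of A, so it is of low complexity. A match describes letters and is not evidence of a bound site.

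Slfn4 and Slfn2 held no ISRE match in this window, although both were called higher with LPS under control siRNA. Slfn4 held a match to the AP-1 motif, searched as TGANTCA on both strands and present in 7.81% of promoters. It lies 27 bases before the start and is in capitals in the whole promoter, which is shown because Slfn4 is the member with called values in all 4 pairs of arrays.
Slfn4, chr11:83174936-83175235, plus strand: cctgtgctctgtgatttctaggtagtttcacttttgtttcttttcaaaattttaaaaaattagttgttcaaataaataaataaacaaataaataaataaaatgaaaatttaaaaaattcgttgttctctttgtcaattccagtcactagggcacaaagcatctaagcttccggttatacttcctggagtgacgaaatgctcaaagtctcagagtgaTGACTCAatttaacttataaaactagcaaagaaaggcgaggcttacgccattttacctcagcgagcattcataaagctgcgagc
The NF-κB consensus, present in 8.46% of promoters, matched in Slfn1 and Slfn9. The PU.1 core GAGGAA, present in 28.3%, matched in Slfn9 alone of the 6, and the GAS motif TTCNNNGAA, present in 8.30%, matched in none. No motif searched matched in Slfn2.

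Ruvbl2 siRNA against control siRNA asks whether the Schlafen levels differ when Ruvbl2 is targeted. Each of these pairs shares 1 array with each LPS pair. Slfn4 was lower with Ruvbl2 siRNA in both treatments, and it was the only one of the 5 detected members called in either. The background in DMSO was 1.55% of 13458 genes called, 0.535% lower and 1.01% higher. In LPS it was 2.52% of 13472 genes, 1.46% lower and 1.06% higher. The members' median was -0.22 in DMSO, from -1.02 to 0.08, and -0.15 in LPS, from -1.37 to 0.67, beside medians over all genes of 0.04 and 0.0046.

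The Slfn4 difference was -1.02, or 2.03-fold lower, in DMSO and -1.37, or 2.59-fold lower, in LPS. The technical SD was 0.05 or less in each. Of the other genes compared, 64 of 13457 were as low in DMSO and 78 of 13471 in LPS. The DMSO value lay close to the size rule, and normexp background correction with quantile normalization gave -0.97, which was not called. The pairs share no array, and 16 genes were called lower in both, Slfn4 among them, which is 22.2% of those called in DMSO and 8.12% of those called in LPS.

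The other members differed by less than 2-fold with Ruvbl2 siRNA. Slfn5 was 1.46-fold lower in DMSO and 1.13-fold lower in LPS by its brightest probe, and its second probe was 1.59-fold and 1.23-fold lower. Slfn2 had a value of 0.08 in DMSO, which spike-in scaling turned to -0.22, and of -0.15 in LPS. For Slfn9 the values were -0.15 in DMSO and 0.17 in LPS, and -0.09 and 0.46 by its dimmer probe. These Slfn2 and Slfn9 values lie within the central 95% of all genes, -0.538 to 0.56 in DMSO and -0.77 to 0.61 in LPS. The Slfn5 values in DMSO, -0.543 and -0.673, lie below it, the first only just. Of 13457 other genes, 389 and 238 were as low.

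By its brighter probe, Slfn8 stood at -0.22 in DMSO and at 0.67, or 1.59-fold higher, in LPS. In LPS, 370 of 13471 other genes were as high. Its dimmer probe gave -0.02 and -0.15, both within the technical SD of 0.21, and the mean of both probes gave 0.26 in LPS. The higher Slfn8 value with Ruvbl2 siRNA and LPS therefore rests on 1 of 2 probes, which are annotated to different transcripts. Of the genes outside the 6, Slfn3 had a value of 0.06 in DMSO, which spike-in scaling turned to -0.24, and of about 0 in LPS.

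**Figure D3:**
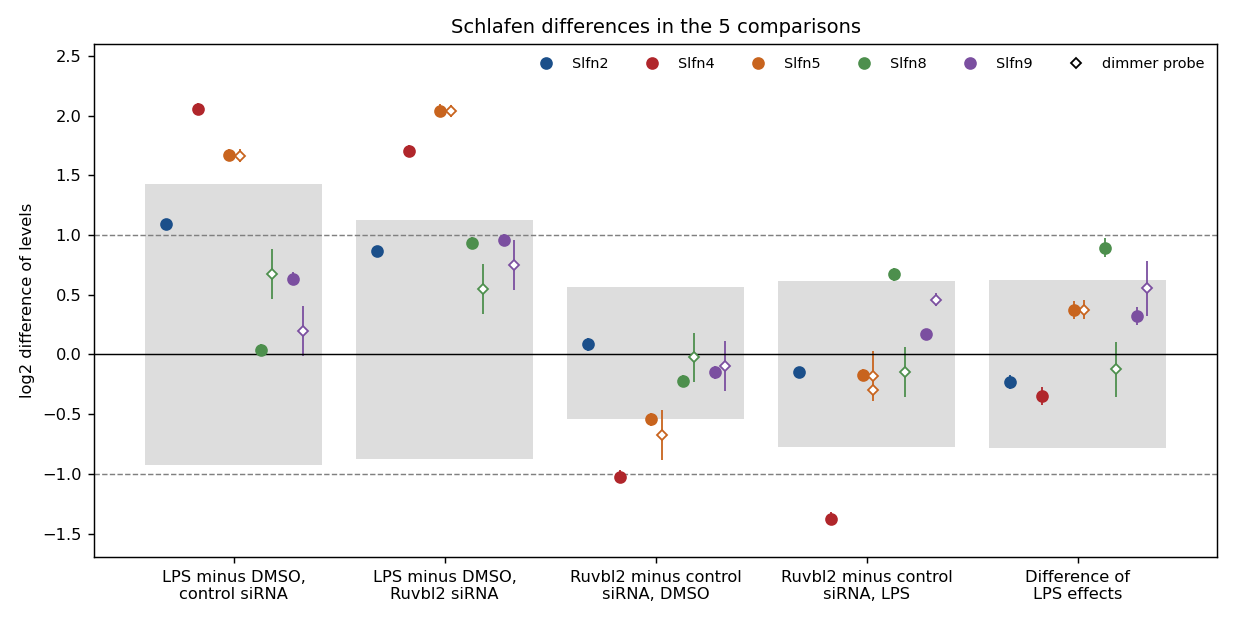
Log2 difference (vertical axis) of the 5 detected Schlafen members in the 5 comparisons (horizontal axis), with filled points for the probe that represents a gene, open points for dimmer probes, bars of 1 technical SD, dashed lines at the 2-fold rule and grey boxes for the central 95% of all genes. Every member is above 0 in both LPS comparisons, Slfn4 is below -1 in both siRNA comparisons, and no member passes the rule in the difference of LPS effects; with spike-in scaling Slfn2 turns sign in the DMSO siRNA comparison and in that difference, where the dimmer Slfn8 probe turns too and Slfn8 passes the rule.

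The difference of LPS effects, Ruvbl2 siRNA minus control siRNA, asks whether the LPS response itself differs between the siRNAs. No member was called, against a background of 1.69% of 12471 genes called, 0.513% higher and 1.18% lower. The value was 0.90 for Slfn8, 0.37 for Slfn5 and 0.32 for Slfn9. It was -0.35 for Slfn4, shrinking to -0.05 with spike-in scaling, and -0.23 for Slfn2, turning to 0.07. The median of the members was 0.32, and that of all genes was -0.03. The lower Slfn4 level with Ruvbl2 siRNA was thus present in DMSO as well as in LPS, and its fold response to LPS was 4.16 with control siRNA and 3.26 with Ruvbl2 siRNA. For Slfn8, 95 of 12470 other genes had as high a value, spike-in scaling gave 1.19, and the mean of its probes gave 0.39. The dimmer Slfn8 probe gave -0.12, which spike-in scaling turned to 0.17.

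Other interferon-stimulated genes were set beside the Schlafen members, from a list of 28, of which 26 were on the array and measured in all comparisons. With LPS, 20 were called higher under control siRNA and 25 under Ruvbl2 siRNA, with medians of 1.52 and 2.02 and none called lower. Of all genes compared, 5.73% and 4.14% were called higher in these pairs. Zbp1, a sensor of nucleic acids, was 32.9-fold and 23.5-fold higher, and Isg15, a ubiquitin-like modifier, 8.80-fold and 10.9-fold. The median member of the Schlafen family, at 1.09 and 0.96, lay below the list's median in both pairs, which was not tested.

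With Ruvbl2 siRNA in DMSO, all 26 of these genes were below 0, with a median of -0.76, and 8 were called lower. Of all genes, 41.6% of those measured on both arrays were below 0, and 0.535% of those compared were called lower. Spike-in scaling, which moves every gene of that pair by -0.30, called 15 of the 26. The share of all genes called under that scaling is not reported here, so the rise cannot be read as particular to the list. Oasl2, Isg20 and Irf7 were 2.44-fold, 2.43-fold and 2.28-fold lower. In LPS, 21 of the 26 were below 0 and 4 were called lower, with a median of -0.40, and Isg20, an exonuclease, was 3.55-fold lower. Among all genes there, 49.2% of those measured were below 0 and 1.46% of those compared were called lower. Slfn4, at -1.02 and -1.37, lay below both medians, and the other detected members lay above them. The difference of LPS effects had a median of 0.39 over the list, with Rtp4, a chaperone of receptor transport, called at 2.44-fold. Of all genes, 0.513% were called higher in that difference. With spike-in scaling, which moves every gene there by 0.30, 6 listed genes were called, and the share of all genes is again not reported here.

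**Figure D4:**
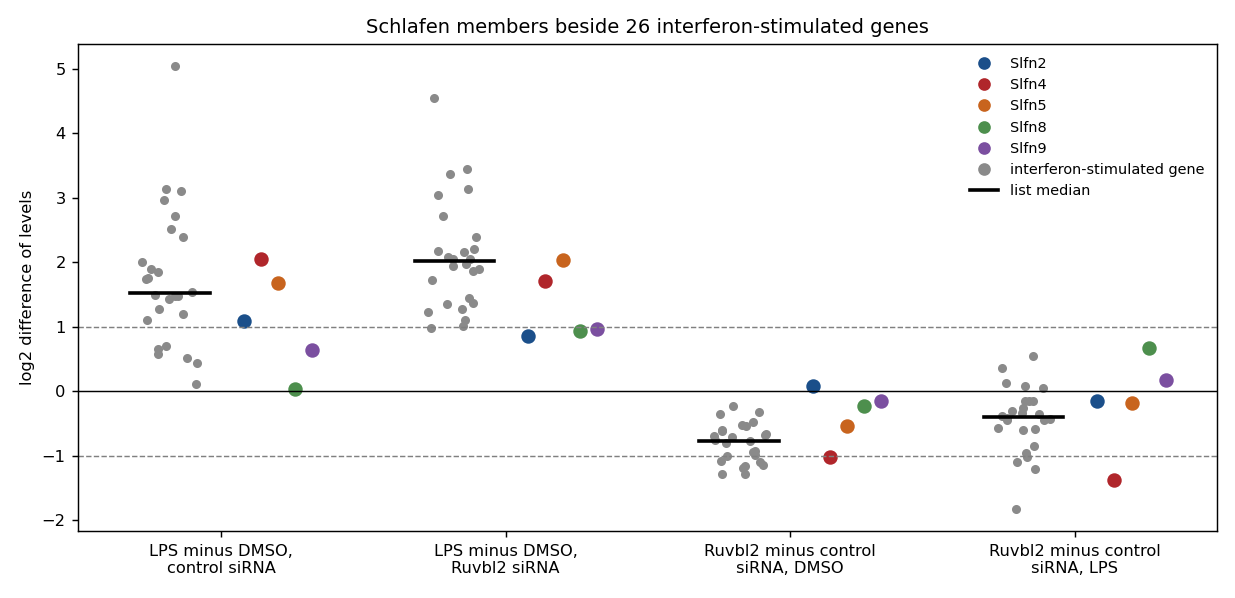
Log2 difference (vertical axis) of 26 interferon-stimulated genes (grey points) and of the 5 detected Schlafen members (coloured symbols), with bars at the list medians, in the 2 LPS and the 2 siRNA comparisons (horizontal axis). With Ruvbl2 siRNA in DMSO all 26 grey points are below 0, and Slfn4 is the member furthest below 0 in both siRNA comparisons; Slfn2 turns sign with spike-in scaling in DMSO.

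The pathway from interferon to its factors was read in the same comparisons. Of 14 listed genes, 13 could be compared with LPS under each siRNA. In each LPS pair 2 were called higher and none lower. Of all genes, 5.73% were called higher with control siRNA and 4.14% with Ruvbl2 siRNA. Socs1, an inhibitor of interferon signalling and among those called, was 2.57-fold higher with control siRNA and 3.52-fold with Ruvbl2 siRNA. The interferon gene Ifnb1 was at least 1.86-fold higher with control siRNA, which was not called. No pathway gene was called with Ruvbl2 siRNA in DMSO or in LPS, where 1.55% and 2.52% of all genes were. Among 5 granulocyte markers, S100a8 was the one called higher with LPS, from levels of -6.15, not well above background, to 0.24 with control siRNA and of -2.42 to 0.53 with Ruvbl2 siRNA. Elane had a value of -0.12 with LPS under control siRNA, and of -0.33 under Ruvbl2 siRNA, which spike-in scaling turned to 0.04. Camp had values of 0.08 and 0.62. The summed linear level of the 5 markers was 0.775 and 1.003 on the DMSO arrays and 1.90 and 2.14 on the LPS arrays of control and Ruvbl2 siRNA, and Ltf was not well above background on any. The part of these markers in the Schlafen values was not tested.

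The genes most like each member across the 4 arrays were found by the root mean square difference of centred levels among 11687 genes. With 4 points this describes these arrays only, and a course shared with the member follows from the choice. Nearest to Slfn4 were Trib3, a pseudokinase of the stress response, at 0.14, Basp1, a membrane-bound signalling protein, at 0.16, and Csprs at 0.19. Trib3 stood at 1.75, 4.16, 1.04 and 2.59 in the order control siRNA DMSO, control siRNA LPS, Ruvbl2 siRNA DMSO and Ruvbl2 siRNA LPS. That it was lower with Ruvbl2 siRNA in each treatment, like Slfn4, is what it was chosen by. Nearest to Slfn5 were Gvin1, an interferon-inducible giant GTPase, at 0.052, Trim30d, of a family of ubiquitin ligases, at 0.068, and Oasl1, of the oligoadenylate synthetase family, at 0.094. By the brighter Slfn8 probe, Oas2 was the second nearest to Slfn8, at 0.072, after Efcab5 at 0.066. The dimmer Slfn8 probe, which was higher on both LPS arrays, was not used in this search. Efcab5 stood between -4 and 0, where the technical SD of a difference is 0.21, more than its distance.

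**Figure D5:**
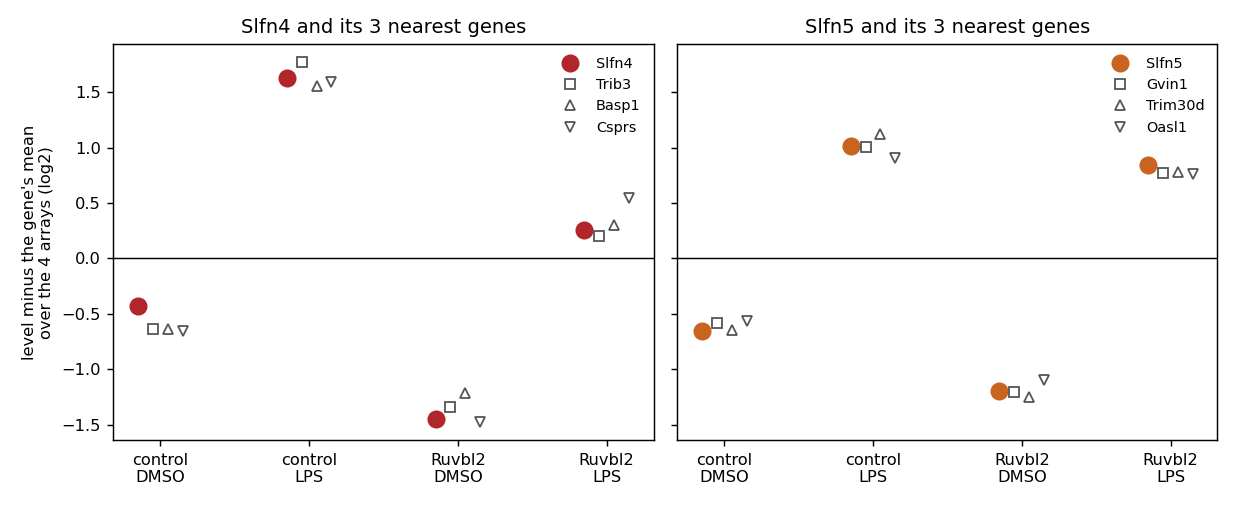
Centred log2 level (vertical axis) of Slfn4 and of Slfn5, each with its 3 nearest genes, on the 4 arrays (horizontal axis). Slfn4, Trib3, Basp1 and Csprs are lower on the Ruvbl2 siRNA LPS array than on the control siRNA LPS array, while Slfn5, Gvin1, Trim30d and Oasl1 are close on the 2 LPS arrays. The nearest genes were chosen by this likeness, so the shared course follows from the choice.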

How the data were processed

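The members and gene lists were chosen with earlier results of these data known. Per the file headers, Agilent Feature Extraction 11.5.1.1 read the arrays; the submitters' processing notes give version 11.0. The deposited processed signal is an intensity after background subtraction within each array, linear and without scaling between arrays, and the value table deposited with it holds the same numbers. Each of the 10 member probes was printed as 1 spot, and none of those spots carried an outlier mark. The number of arrays, 1 in each group, limits the precision.

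From the deposited intensity, the log2 level was computed as log2 minus the array's 75th percentile over RNA probes. Repeat spots were averaged without population outliers, and the brightest probe by mean level stood for its gene. Where a probe was dim on 1 array of a pair, its value there or the floor (the lowest level well above background), whichever was higher, gave a bound, and genes dim on both were left out. The difference of LPS effects used genes well above background on all 4 arrays. Named genes were the members, the other Schlafen genes, Ruvbl2, up to 3 per direction of each list and the 3 nearest to each member; some list genes are not reported here.

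Alternatives were normexp (offset 50) with quantile normalization, quantile normalization, centring on detected probes, E1A spike-in scaling (7 probes), cyclic loess, the deposited table, the mean of a gene's probes, a stricter and no filter on dim probes, and outliers kept. The design named the mean signal for normexp; the median signal was used in its place. Scripts ran in R 4.3.3 with limma 3.58.1 and in Python 3.11.15, and were tested on simulated data.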

Additional observations from a re-analysis of the deposited data

Results flagged for a closer look

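For 3 members the representing probe differed in opposite directions with Ruvbl2 siRNA in the 2 treatments, at any size. As log2 differences, the Slfn2 probe read 0.084 in DMSO, which spike-in scaling turned to -0.22, and -0.15 in LPS. The Slfn8 probe read -0.22 in DMSO and 0.67 in LPS, and its dimmer probe -0.02 and -0.15. The Slfn9 probe read -0.15 in DMSO and 0.17 in LPS, and its dimmer probe -0.095 and 0.46, again in opposite directions. With 1 array in each group, the difference between the treatments was not tested.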

How the results depend on the processing

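The count of members called with LPS under control siRNA was 3 in each of the 10 alternatives. With spike-in scaling the count with LPS under Ruvbl2 siRNA went from 2 to 5, and that in the difference of LPS effects from 0 to 1 (Slfn8). That scaling moves every gene by 0.37 in the former and by 0.30 in the latter, and the shares of all genes called under it are not reported here. With normexp and quantile normalization the count for the siRNA in DMSO went from 1 to 0 (Slfn4 at -0.97). With no filter on dim probes Slfn1, which is not detected, was added as higher: the count for the siRNA in LPS went from 1 to 2, that for LPS under Ruvbl2 siRNA from 2 to 3 and that in the difference from 0 to 1. Of 250 member values under alternatives, 203 moved by less than 1 technical SD and 47 moved by more. None that was called reversed, and 2 changed sign, both of Slfn2 with spike-in scaling. Several alternatives could not move a detected member's value: the deposited table, both changes of the filter on dim probes, and outliers kept. The mean of a gene's probes could not move Slfn2 or Slfn4, which have a single probe. The count of unmoved values therefore overstates how stable the values are. Slfn4 ranged from -1.33 to -0.97 for the siRNA in DMSO and from -1.38 to -1.30 in LPS. Dim spots limit Slfn1 and the third Slfn5 probe. No paired analysis was possible because each group has 1 array.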

Other observations

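Genes of transfer RNA cleavage and translation stress were read because Schlafen proteins act on transfer RNA. The 14 listed names stood for 13 genes, as Dnmt2 and Trdmt1 name the same gene, and all 13 were on the array. With LPS under control siRNA, 3 were called higher, beside 5.73% of all genes, and the list's median was 0.11. Among those called, Ddit3, a stress-induced transcription factor, was 3.42-fold higher and Eif2ak2, the kinase activated by double-stranded RNA, 2.16-fold. Under Ruvbl2 siRNA Eif2ak2 alone was called, at 2.56-fold, with a list median of 0.10, beside 4.14% of all genes called higher. Spike-in scaling, which moves every gene of that pair by 0.37, called 2 listed genes, and the share of all genes called under it is not reported here. With Ruvbl2 siRNA no listed gene was called in DMSO, where 1.55% of all genes were. Ddit3 was 2.31-fold lower in LPS, where 1.46% of all genes were called lower. The difference of LPS effects for Ddit3 was 2.21-fold lower and was not called with spike-in scaling. Angiogenin (Ang), the ribonuclease from which Slfn2 shields transfer RNA, had siRNA differences of -0.49 in DMSO and -0.35 in LPS.

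Nearest to Slfn2 across the 4 arrays were Agpat3, an enzyme of phospholipid synthesis, at 0.034, Eva1b at 0.036 and Gipc2 at 0.039. Nearest to Slfn9 were the sialomucin gene Cd164 at 0.030, Tspyl3 at 0.050 and the small GTPase gene Rab13 at 0.050. These values are the root mean square difference of centred log2 levels. Gipc2, Tspyl3 and Rab13 stood between -4 and 0, where the technical SD of a difference is 0.21, more than their distances. The third nearest gene of Slfn8, by its brighter probe alone, was Cenpf, a protein of the centromere, at 0.089.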
